A study of Mus musculus with 6 samples.

Results

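The NF-kappaB genes described here were 10 genes given by name, found as the rows of the count table with these symbols among 13709 rows. They encode the 5 subunits (Nfkb1, Nfkb2, Rel, Rela and Relb) and 5 inhibitors of the pathway (Nfkbia, Nfkbib, Nfkbie, Nfkbiz and Tnfaip3). All 10 had enough reads to be tested. They were measured by bulk RNA-Seq in CD4+YFP+CD25+ Tregs, a CD4+ T cell lineage defined by Foxp3 that holds other T cells in check, sorted from 3 WT and 3 KO C57BL/6 samples at 2 weeks of age. WT mice carried Foxp3Cre and KO mice carried Foxp3Cre with Zfp335fl/fl, so both genotypes expressed Cre and YFP from the Foxp3 locus. Zfp335, a zinc finger transcription factor, was targeted only in KO Tregs. The labels name both lymph nodes and spleen as the tissue, and whether a sample was 1 mouse or several was not stated.

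In resting cells NF-kappaB dimers are held in the cytoplasm by IkB proteins. Signals from the T cell receptor, TNF family receptors or receptors that use Myd88 activate the IkB kinase, IkB is degraded and the dimers enter the nucleus, where Nfkbia and Tnfaip3 are among the genes they switch on, which closes a negative feedback loop. A separate, noncanonical route processes the Nfkb2 precursor and uses Relb. Rel (c-Rel) is needed for the development of thymic Tregs, and Rel and Rela maintain the function of mature Tregs.

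The sequences next to the start sites of genes of this loop are shown because NF-kappaB sites in them can be read directly. Promoters came from RefSeq on GRCm38.p6, and 7 of the 10 genes were matched. The promoters of Nfkb1, Relb and Nfkbiz were not used here. In the 250 bases before each start, capitals mark matches on either strand to the kappaB consensus, a motif of 10 letters, or to GGAANTTCC, which can overlap it. Bases annotated as UTR in GENCODE M21 were left out, except for the 2 stretches of 30 bases from Nfkb2, and positions are counted back from the base before the RefSeq start. The Nfkbia stretch was chr12:55492648-55492897 on the minus strand, the Nfkbie stretch chr17:45555450-45555699 on the plus strand and the Tnfaip3 stretch chr10:19015411-19015547 on the minus strand. The Nfkb2 stretches were chr19:46304688-46304717 and chr19:46305695-46305724 on the plus strand, and the Nfkbib stretch was chr7:28766645-28766734 on the minus strand.
Nfkbia: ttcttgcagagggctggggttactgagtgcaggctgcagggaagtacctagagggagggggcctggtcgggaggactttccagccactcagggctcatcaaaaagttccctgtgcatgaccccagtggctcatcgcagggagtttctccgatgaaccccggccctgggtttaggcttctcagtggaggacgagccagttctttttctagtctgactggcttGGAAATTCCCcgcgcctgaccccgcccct
Tnfaip3: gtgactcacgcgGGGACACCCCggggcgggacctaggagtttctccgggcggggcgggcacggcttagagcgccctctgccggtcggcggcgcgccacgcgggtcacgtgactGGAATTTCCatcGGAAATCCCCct
Nfkbie: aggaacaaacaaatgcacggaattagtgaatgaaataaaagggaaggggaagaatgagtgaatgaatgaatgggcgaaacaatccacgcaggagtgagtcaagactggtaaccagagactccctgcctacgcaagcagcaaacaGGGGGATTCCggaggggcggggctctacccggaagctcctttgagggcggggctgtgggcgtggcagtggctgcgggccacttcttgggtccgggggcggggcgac
Nfkb2 start 1: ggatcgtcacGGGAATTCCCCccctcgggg
Nfkb2 start 3: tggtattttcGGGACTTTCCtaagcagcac
Nfkbib: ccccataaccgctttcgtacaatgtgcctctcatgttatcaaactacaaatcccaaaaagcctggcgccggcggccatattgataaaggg

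In Nfkbia, the gene of IkB-alpha, the match GGAAATTCCC lay at positions -29 to -20, and GGAANTTCC matched within it. Tnfaip3, the gene of the ubiquitin-editing enzyme A20, held GGAATTTCC at -24 to -16, GGAAATCCCC at -12 to -3 and GGGACACCCC at -125 to -116. Nfkbie, the gene of IkB-epsilon, held GGGGGATTCC at -106 to -97, Rel held GGGAAATCCC at -92 to -83, and each of the 3 starts of Nfkb2 had at least 1 match. No match was found in the windows of Rela or Nfkbib, the gene of IkB-beta. In all, 5 of the 7 genes with an entry held a match at 1 or more of their starts, compared with 5.16% of the 27025 genes in the promoter table. These matches describe the letters only and do not show binding.

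The targeted gene followed the labels. Zfp335 was at 101, 94.3 and 103 CPM (counts per 1000000 counts of the library after trimmed mean of M values scaling, TMM) in WT replicates 1 to 3 and at 37.0, 37.9 and 40.2 CPM in KO replicates 1 to 3. It fell by 1.37 on the log2 scale (SE 0.07, adjusted p = 2.14e-05 by edgeR), to 0.386 of the WT level. Counts by gene do not show whether the remaining transcript was functional. Libraries held 32032631 to 40728419 counts. The Treg markers Cd4, Cd3e, Foxp3, Il2ra and Ctla4 were present in every sample, with a summed level of 3170.0 to 4457 CPM in WT and 2992 to 3081 CPM in KO. Foxp3 itself was called lower in KO (738, 642 and 1189.8 CPM in WT, and 459.7, 472 and 463 CPM in KO), with a log2 fold change of -0.88 that was -0.57, under the fold cutoff, without WT replicate 3. All 5 measured myeloid markers were called higher in KO, with a summed level of 9.88 to 20.8 CPM in WT and 41.5 to 46.2 CPM in KO, but the most abundant of them, Lyz2, was under the fold cutoff without WT replicate 3 (0.55 on the log2 scale, 0.92 with it). The 3 NK cell markers summed to 3.59 to 5.83 CPM in WT and 14.9 to 16.2 CPM in KO, and the 5 B cell markers to 18.0 to 20.1 CPM and 12.1 to 12.6 CPM. Most of the NK sum in KO was Eomes, with means of 2.31 CPM in WT and 11.3 CPM in KO. Klrb1c was called higher too (1.65 and 3.48 CPM), while Ncr1 was not called (0.384 and 0.94 CPM). Of the B cell markers, only Cd79b was called (12.2 and 5.12 CPM). Summed markers of CD8 T cells, dendritic cells and red cells overlapped between the genotypes. The stroma list summed to 192 to 205 CPM in WT and 136 to 145 CPM in KO, nearly all of it Pecam1 (-0.53 on the log2 scale, adjusted p = 0.000721 by edgeR), while Col1a1 was at 1.80 to 2.99 CPM. The part of these cells in the results below was not tested. In bulk samples, a change in the number of cells of a type and a change in RNA per cell cannot be told apart.

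WT replicate 3 stood apart from the other WT samples. The biological coefficient of variation was 0.263 over the 3 WT samples, 0.126 over WT replicates 1 and 2, and 0.0703 over the KO samples. WT replicate 3 was the highest of the 6 samples in 5 of the 10 NF-kappaB genes, compared with 25.3% of all genes. It was also the highest in 8 of 9 genes known to respond rapidly to cell handling or activation (Fos, Fosb, Jun, Egr1, Ier2, Atf3, Dusp1, Hspa1a and Hspa1b). These genes summed to 989.8, 956 and 3034 CPM in WT replicates 1 to 3 and to 1093 to 1134 CPM in KO. Each of the 10 genes is therefore given with and without this sample, and pathway genes called only with it or only without it are named. For marker and handling genes this was not done throughout.

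To determine how the deletion of Zfp335 related to the NF-kappaB machinery of Tregs, KO was compared with WT. None of the 10 genes was called, where a call needed a fold change above 1.5, p under 0.05 and adjusted p under 0.1, whereas 24.4% of all 13594 genes tested were called, 11.9% higher and 12.5% lower. Unadjusted p was under 0.05 in 4 genes by edgeR (47.6% of all genes) and in the same number by DESeq2, which also called none. These 4, namely Nfkb1, Nfkb2, Nfkbib and Nfkbie, were all higher in KO and passed the adjusted p of 0.1 that 47.0% of all genes passed (22.7% passed and were higher in KO). WT and KO values did not overlap in 5 of the 10 genes, beside 53.8% of all genes. The fitted fold change was above 1 for 9 genes and below 1 for Relb, beside 6405 of all 13594 genes above 1. Its median was 0.22 on the log2 scale, beside -0.04 for all genes. Without WT replicate 3, Nfkbia, Nfkbiz and Tnfaip3 were called higher in KO, beside 13.6% of 13663 genes called higher (26.8% in either direction), and the median was 0.37, beside -0.02 for all genes. Fits without WT replicate 3 leave out a sample singled out by its values and keep only WT replicates 1 and 2. Their small SE and adjusted p follow in part from that choice and are given as a description.

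**Figure D1:**
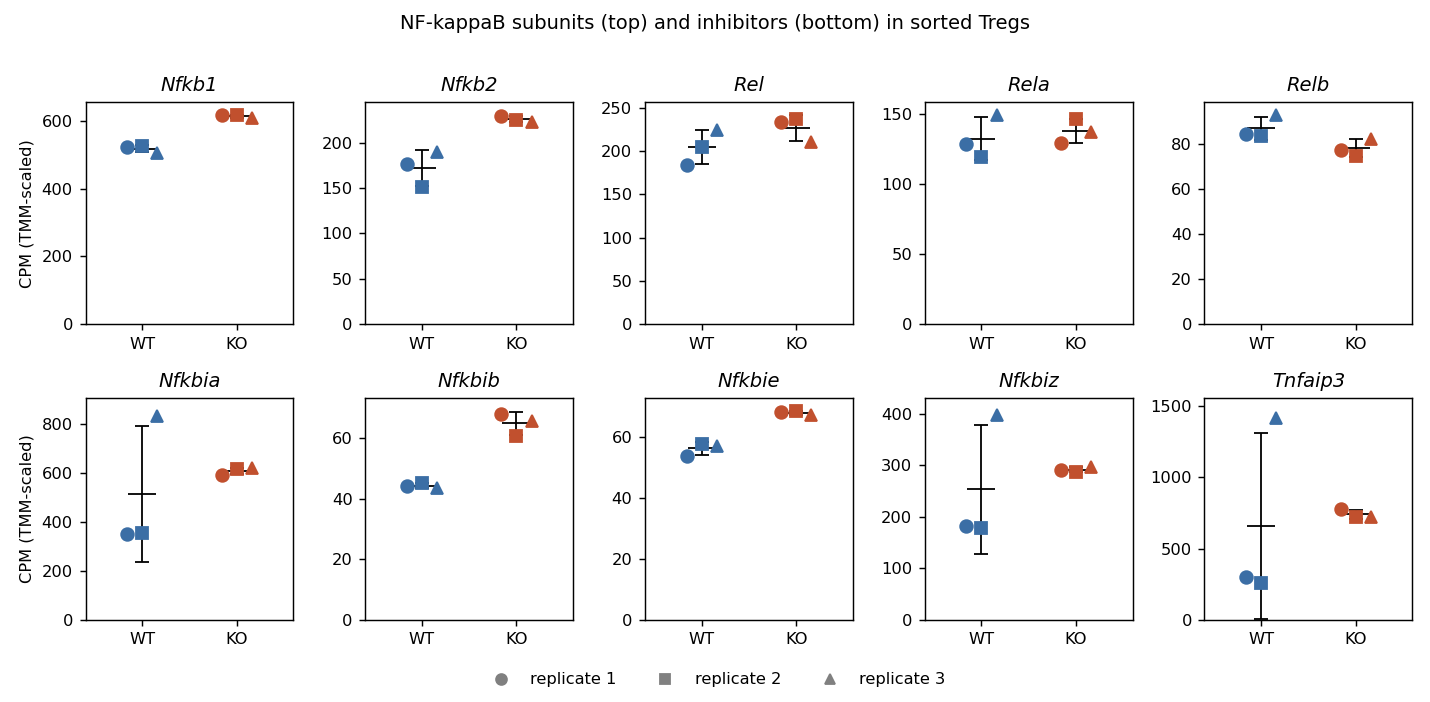
CPM (vertical axes, from 0) of the 5 subunits in the top row and the 5 inhibitors in the bottom row, with 1 point per sample (blue WT, red KO, symbol for the replicate number) and the mean ± SD over 3 samples in black. KO samples are less spread than WT samples in every panel but that of Nfkbib, and in Nfkbia, Nfkbiz and Tnfaip3 WT replicate 3 lies above all KO samples while WT replicates 1 and 2 lie below them.

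Among the subunits, the 2 precursor genes were modestly higher in KO. Gene positions are those of GENCODE M21 on GRCm38. Nfkb1 (chr3:135584655-135691547, minus strand), whose p105 product is the precursor of p50 and also acts as an IkB, was at 523, 526 and 505 CPM in WT replicates 1 to 3 and at 616, 617 and 609 CPM in KO replicates 1 to 3. All KO samples were above all WT samples, with an SD of 11.4 CPM among WT and 4.27 CPM among KO samples. The fitted change was 0.25 on the log2 scale (SE 0.06, 95% interval 0.11 to 0.38, adjusted p = 0.0135 by edgeR), a 1.19-fold difference that fell short of the fold cutoff. It was 0.22 without WT replicate 3 (adjusted p = 0.00109).

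Nfkb2 (chr19:46304320-46312385, plus strand), the precursor p100 of p52 and the target of the noncanonical kinase Map3k14, was at 176, 151 and 189.7 CPM in WT and at 229, 225 and 223 CPM in KO. The groups did not overlap, and the WT samples were spread more widely (SD 19.5 CPM) than the KO samples (SD 3.24 CPM). KO exceeded WT by 0.39 on the log2 scale (SE 0.09, 95% interval 0.18 to 0.60, adjusted p = 0.0112 by edgeR), or 1.31-fold, and 0.46 (SE 0.07, adjusted p = 3.62e-05) without WT replicate 3. On the opposite strand, Psd shares 299 bases of exon with Nfkb2, and whether the counting used strand was not stated. Psd was at 0.199 to 1.20 CPM.

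The subunits with a transactivation domain did not pass the test. Rel (chr11:23736847-23770970, minus strand) was at 184, 205 and 224 CPM in WT and at 233, 237 and 209.8 CPM in KO. KO replicate 3 lay below WT replicate 3, so the groups overlapped, and the log2 fold change of 0.15 (SE 0.09, 95% interval -0.06 to 0.36) had an adjusted p of 0.236 by edgeR. It was 0.22 without WT replicate 3, with an adjusted p of 0.0136, still only 1.16-fold.

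Rela (chr19:5637483-5648130, plus strand), the p65 subunit of the canonical dimer, was at 128, 119 and 149 CPM in WT and at 129, 146 and 137 CPM in KO. WT replicate 3 was the highest sample, followed by KO replicate 2, and the groups overlapped. The difference was 0.06 on the log2 scale (SE 0.10, adjusted p = 0.667 by edgeR), and its 95% interval ran from -0.16 to 0.28. It was 0.15 without WT replicate 3 (adjusted p = 0.0804).

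Relb (chr7:19606217-19629438, minus strand), the partner of p52 in the noncanonical route, was the only gene of the 10 with a lower KO mean. It was at 84.4, 83.2 and 92.8 CPM in WT and at 77.3, 74.5 and 82.2 CPM in KO. The groups did not overlap, but the highest KO sample was close to the lowest WT sample. With a log2 fold change of -0.15 (SE 0.07, 95% interval -0.33 to 0.02), the adjusted p was 0.143 by edgeR, and without WT replicate 3 the change was -0.11 (adjusted p = 0.196). Per kilobase of exon, Relb made up 12.8%, 13.0% and 12.9% of the summed subunit level in WT and 10.3%, 9.65% and 11% in KO, and Nfkb2 made up 22.6%, 20.1% and 22.3% in WT and 25.7%, 24.7% and 25.2% in KO. Neither share overlapped between genotypes. These shares are given as a description without a test.

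Of the inhibitors, Nfkbib and Nfkbie were higher in KO whichever WT samples were used. Nfkbib (chr7:28758251-28767512, minus strand) encodes IkB-beta, an IkB that is not part of the fast feedback loop. It was at 44.2, 45.1 and 43.3 CPM in WT and at 68.0, 60.7 and 65.6 CPM in KO. The WT samples were nearly identical and every KO sample was far above them. The fitted change was 0.55 on the log2 scale (SE 0.07, 95% interval 0.38 to 0.72, adjusted p = 0.00104 by edgeR). At 1.47-fold it was the largest fitted change among the 10 genes over all 6 samples and lay just under the fold cutoff of 1.5, and the fold was 1.45 without WT replicate 3. Nfkbib was called in 3 of 15 alternative analyses, namely with offsets for GC content and length (log2 fold change 0.67), without KO replicate 2 (0.60) and with no fold cutoff. Sirt2 on the opposite strand shares 42 bases of exon with it and was at 70.0 to 84.4 CPM.

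Nfkbie (chr17:45555703-45563169, plus strand) encodes IkB-epsilon, which dampens later rounds of NF-kappaB activity. It was at 53.8, 57.6 and 57.1 CPM in WT and at 68.2, 68.4 and 67.1 CPM in KO. The groups did not overlap, and WT replicate 3 lay within the range of the other WT samples. KO exceeded WT by 0.27 on the log2 scale (SE 0.07, 95% interval 0.12 to 0.43, adjusted p = 0.0138 by edgeR), or 1.21-fold, and by 0.28 without WT replicate 3 (adjusted p = 0.00282). Over the 6 samples, its profile differed little from that of Nfkb1, with a root-mean-square difference of 0.042 between their log2 CPM after each was centered on its own mean. Nfkb1 was not among the nearest 3 genes, which were Ccdc82 at 0.01 and Prpf4 and Snx5 at 0.02.

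Nfkbia, Nfkbiz and Tnfaip3 split the WT samples. Nfkbia (chr12:55489410-55492647, minus strand), whose product IkB-alpha retains the dimers and is rebuilt after each signal, was at 351, 357 and 835 CPM in WT and at 594, 615 and 619 CPM in KO. The KO samples lay between WT replicates 1 and 2 below and WT replicate 3 above, which was 2.36-fold over the mean of the other WT samples. With all samples the log2 fold change was 0.24 (SE 0.31, 95% interval -0.48 to 0.97, adjusted p = 0.578 by edgeR). It was 0.78 without WT replicate 3 (SE 0.05, adjusted p = 8.01e-09), or 1.72-fold higher in KO.

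Nfkbiz (chr16:55811375-55838899, minus strand) encodes IkB-zeta, an inducible nuclear IkB that can activate as well as inhibit NF-kappaB targets. It was at 183, 179 and 397 CPM in WT and at 291, 287 and 296 CPM in KO, the same order of samples as for Nfkbia. WT replicate 3 was 2.20-fold over the mean of the other WT samples and 1.36-fold over the KO mean. The fitted change was 0.20 on the log2 scale (SE 0.29, 95% interval -0.46 to 0.87, adjusted p = 0.615 by edgeR), and 0.68 (SE 0.05, adjusted p = 6.21e-08) without WT replicate 3. The Nfkbia and Nfkbiz profiles differed by 0.053 (root mean square, log2). Among the 8906 genes at 10 CPM or more on average, Nfkbiz was number 2 in likeness to Nfkbia over the 6 samples. That place rested on WT replicate 3, since without it the difference was 0.054 and the nearest 3 genes, Cyfip2, Gars and Tuba1b, were at 0.02.

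Tnfaip3 showed the widest spread. A20, its product, trims and attaches ubiquitin chains on signaling proteins such as Ripk1 and thereby ends NF-kappaB signaling. Tnfaip3 (chr10:19000910-19015657, minus strand) was at 299, 262 and 1415 CPM in WT and at 778, 722 and 721 CPM in KO. WT replicate 3 was 5.04-fold over the mean of the other WT samples and 1.91-fold over the KO mean, and even the lowest KO sample was 2.41-fold over the higher of WT replicates 1 and 2. Over all samples the change was 0.17 on the log2 scale (SE 0.59, 95% interval -1.19 to 1.53, adjusted p = 0.849 by edgeR). It was 1.39 without WT replicate 3 (SE 0.06, adjusted p = 2.67e-10), or 2.63-fold higher in KO, and without WT replicate 1 or 2 it was -0.18 or -0.21. The direction for Tnfaip3 therefore depended on which WT samples were used.

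The order seen in Nfkbia, Nfkbiz and Tnfaip3, with every KO sample above WT replicates 1 and 2 and WT replicate 3 above every KO sample, was held by 610 of all genes tested (4.49%). Rela also held it, but its WT replicate 3 was only 1.01-fold over the highest KO sample. Among the handling and activation genes, Jun, a subunit of the transcription factor AP-1, had this order with 122, 118 and 567 CPM in WT and 315, 316 and 333 CPM in KO. Ier2 held it too, at 154, 153 and 280.3 CPM in WT and 179, 184 and 177 CPM in KO, as did Hspa1a and Hspa1b at low levels (at most 4.78 CPM). The rest of these genes, namely Fos, Fosb, Egr1, Dusp1 and Atf3, did not hold it. Fos, the partner of Jun, was lowest in KO, at 156, 152 and 158 CPM beside 191, 191 and 712 CPM in WT. Fos was called lower (-1.23 on the log2 scale, adjusted p = 0.0799 by edgeR), but the change was -0.31, under the fold cutoff, without WT replicate 3. The part of handling or activation in the values of Nfkbia, Nfkbiz and Tnfaip3 was not tested. WT replicate 3 was more than 2-fold over the mean of the other WT samples in 5.33% of all genes, and in these 3 of the 10.

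**Figure D2:**
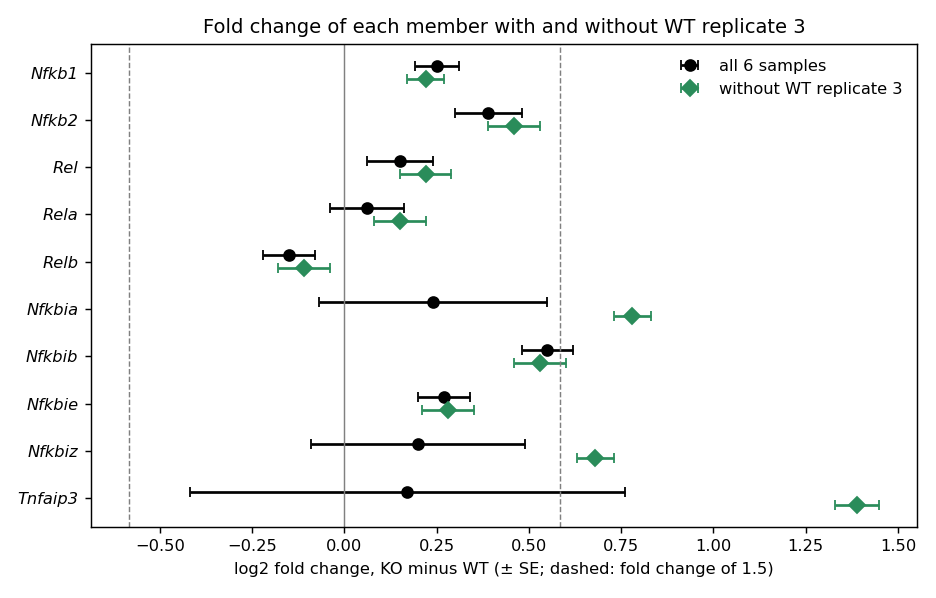
Log2 fold change of KO over WT (horizontal axis, ± SE) for each of the 10 genes, fitted over all 6 samples (black circles) and without WT replicate 3 (green diamonds), with dashed lines at a fold change of 1.5. Tnfaip3 moves from 0.17 to 1.39, Nfkbia from 0.24 to 0.78 and Nfkbiz from 0.20 to 0.68, whereas Nfkb1, Nfkbib and Nfkbie hardly move.

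Levels of different genes were compared per kilobase of exon. Nfkbia was the most abundant of the 10 in both genotypes, at 218, 222 and 518 CPM per kilobase in WT and 369, 382 and 385 in KO. In KO it was followed by Tnfaip3 (102 ± 4.54, SD, n = 3), Nfkbiz (58.1 ± 0.883), Nfkb1 (50.9 ± 0.354), Nfkb2 (49.2 ± 0.707), Rela (44.7 ± 2.84), Rel (30.3 ± 1.94), Nfkbib (29.8 ± 1.72), Nfkbie (22.3 ± 0.239) and Relb (20.1 ± 0.994). Rel and Nfkbib were the only neighbors in this order whose KO values overlapped. In WT, the means of Tnfaip3 (91.2 ± 90.7) and Nfkbiz (50.4 ± 24.9) had spreads that reached the levels of Nfkb1 (42.9 ± 0.946), Rela (42.9 ± 4.89) and Nfkb2 (37.6 ± 4.25), so their order could not be told. Nfkb1 depended most on the length used, since its exons cover 12061 bases together but 4149 bases in the longest transcript, and with the latter it was in place 2 in KO at 148 ± 1.03 and at 125 ± 2.75 in WT, where Tnfaip3 at 106 ± 106 could not be ordered against it.

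**Figure D3:**
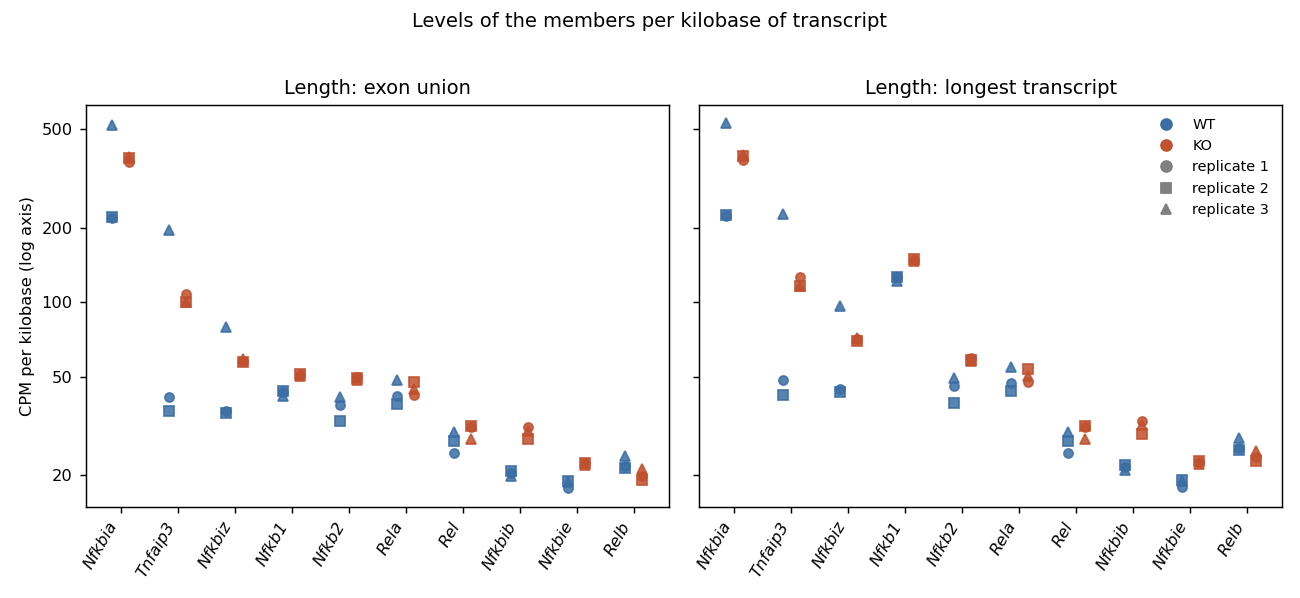
CPM per kilobase (log axis) of the 10 genes by sample, with length taken as the union of exons on the left and as the longest transcript on the right (blue WT, red KO, symbol for the replicate number). Nfkbia is at the top in every sample, and Nfkb1 lies above Tnfaip3 in KO when the longest transcript is used.

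The balance of cytoplasmic IkB to subunit transcripts, taken as the summed CPM per kilobase of Nfkbia, Nfkbib and Nfkbie over that of the 5 subunits, was 1.51, 1.59 and 3 in WT replicates 1 to 3 and 2.18, 2.17 and 2.27 in KO. The KO samples were nearly equal and lay between WT replicates 1 and 2 below and WT replicate 3 above. The mean was 2.03 ± 0.841 in WT and 2.21 ± 0.0531 in KO (SD, n = 3), a difference smaller than the WT spread. Nfkbia set most of the balance, with 10.7, 10.7 and 26 times the Nfkbib level in WT and 11.8, 13.7 and 12.7 times in KO. The level of the balance depended on the length used. With the longest transcript it was 0.973, 1.02 and 2 in WT and 1.39, 1.4 and 1.45 in KO, so KO again lay between WT replicates 1 and 2 and WT replicate 3. Nfkb1 was counted as a subunit only.

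The wider pathway was described with 95 other genes in lists of ligands, receptors, adaptors, kinases, ubiquitin enzymes, other IkB proteins and target genes. Of these, 25 were called (26.3%, beside 24.4% of all genes), 15 higher and 10 lower in KO, and the median log2 fold change was -0.05, beside -0.04 for all genes. Without WT replicate 3, 34 were called, 26 higher and 8 lower, beside 26.8% of 13663 genes called in either direction and 13.6% called higher. The counts by list below stand beside these shares and, over all 6 samples, beside 11.9% of all genes called higher and 12.5% called lower.

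Of the 8 ligands, 3 were called higher and 2 lower. Cd40lg, which activates CD40 on antigen-presenting cells, rose from 19.4 ± 5.04 to 62.5 ± 2.81 CPM (1.68 on the log2 scale, SE 0.18, adjusted p = 0.000409 by edgeR). Tnfsf8, the CD30 ligand, rose from 50.7 ± 1.34 to 104 ± 3.81 CPM (1.03), while Tnfsf11 (RANKL) fell from 34.7 ± 6.65 to 18.8 ± 1.41 CPM (-0.88). Tnfsf14 (LIGHT) was called lower (-0.82, adjusted p = 0.0551), but WT replicate 3 at 10.9 CPM lay within the KO range of 10.4 to 11.6 CPM, and the call was lost when any other sample was left out.

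Of 17 receptors, 2 were called higher and 4 lower, and without WT replicate 3, 5 were called higher and 4 lower. Il1r1 (0.62 on the log2 scale over all samples, 2.93 without WT replicate 3), Ltbr (1.57 and 3.94) and Tlr4 (1.37 and 2.61) were called only without that sample. Ltbr and Tlr4 were at low levels (at most 1.67 CPM). Tnfrsf1b (TNFR2), through which TNF expands Tregs, was at 420.1, 406 and 529 CPM in WT and 165, 172 and 179 CPM in KO (-1.39 on the log2 scale, SE 0.11, adjusted p = 0.000108 by edgeR). Cd27, a costimulatory receptor, fell from 276 ± 9.14 to 123 ± 6.78 CPM (-1.16), and Tnfrsf13b (TACI) fell from 73.4 ± 3.05 to 38.0 ± 2.12 CPM (-0.95). Il18r1 of the IL-18 receptor rose from 110.5 ± 25.1 to 274 ± 18.5 CPM (1.31), and Il1rl1, the IL-33 receptor ST2, rose from 55.7 ± 4.44 to 89.0 ± 2.69 CPM (0.68).

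Of 18 adaptors, 1 was called, and without WT replicate 3, 3 were called, all higher (Myd88, Ripk1 and Traf4). Myd88, which links the IL-1 family and Toll-like receptors to the pathway, rose from 66.3 ± 8.18 to 102 ± 4.80 CPM (0.63 on the log2 scale, SE 0.10, adjusted p = 0.00196 by edgeR), and the call was lost without WT replicate 1 (0.56). Of 11 kinases, 1 was called in each direction. Map3k8 (Tpl2), which p105 holds inactive, rose from 61.0 ± 7.02 to 102 ± 1.33 CPM (0.75), and the IkB kinase relative Ikbke fell from 518 ± 33.4 to 316 ± 12 CPM (-0.71).

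Of 16 ubiquitin genes, 1 was called higher and 1 lower, and without WT replicate 3, 3 were called higher (Tnip3, Otulin and Tax1bp1) and 0 lower. Btrc, which marks IkB for degradation, was called lower (-0.68 on the log2 scale, SE 0.21, adjusted p = 0.0359 by edgeR), but WT replicate 3 at 26.1 CPM was well above the other WT samples at 14.9 and 16.1 CPM. The change was -0.39 and not called without WT replicate 3, and the call was also lost without KO replicate 1 or 2.

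The 2 other IkB proteins differed in direction. Bcl3, a nuclear IkB that works with p50 and p52, was at 57.5, 52.6 and 65.8 CPM in WT and 97, 101 and 106 CPM in KO (0.79 on the log2 scale, SE 0.09, adjusted p = 0.000635 by edgeR). Nfkbid (IkBNS), which promotes Foxp3 expression in developing Tregs, was at 101, 97.6 and 205 CPM in WT and 75.1, 71.0 and 80.1 CPM in KO. The groups did not overlap, and the difference was -0.83 on the log2 scale (SE 0.27, adjusted p = 0.0421 by edgeR). The change was -0.40 and not called without WT replicate 3, and the call was also lost without KO replicate 1 or 2.

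Of 23 target genes, 6 were called higher and 1 lower, and without WT replicate 3, 10 were called higher and 1 lower. Cd69 (0.26 on the log2 scale over all samples, 0.88 without WT replicate 3), Gadd45b (0.39 and 1.59), Cxcl10 (0.45 and 1.76) and Il2 (2.12 and 3.98) were called only without that sample. Gadd45b was at 37.9, 38 and 187 CPM in WT and 116, 114 and 115 CPM in KO. Il2 was at most 1.25 CPM. Irf1, an interferon response factor, was at 234, 211 and 399 CPM in WT and 587, 534 and 556 CPM in KO (0.99 on the log2 scale, SE 0.22, adjusted p = 0.00963 by edgeR). Ier3, an immediate early gene, rose from 2.62 ± 1.45 to 11.1 ± 1.30 CPM (2.08). Cd83, a surface protein of activated lymphocytes, fell from 107 ± 25.9 to 26.4 ± 0.370 CPM (-2.01), the only target called lower. The adhesion molecule Icam1 (0.59, SE 0.22, adjusted p = 0.0659) was called, but it lost the call when any sample other than WT replicate 3 was left out, and its change was 0.92 without that sample. The median log2 fold change of the 23 genes was 0.21, beside -0.04 for all genes.

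**Figure D4:**
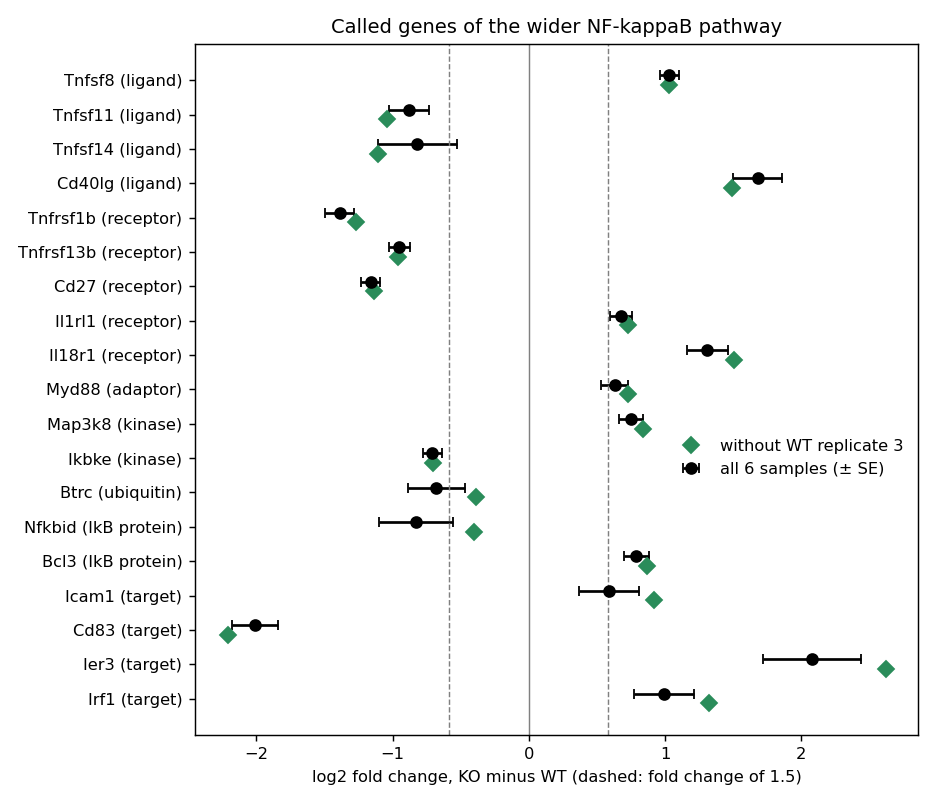
Log2 fold change of KO over WT (horizontal axis) for the 19 named genes of the wider pathway, grouped by role, over all 6 samples (black circles, ± SE) and without WT replicate 3 (green diamonds), with dashed lines at a fold change of 1.5. Cd40lg, Il18r1 and Ier3 lie far to the right and Cd83, Tnfrsf1b and Cd27 far to the left in both fits, and Nfkbid and Btrc move inside the dashed lines without WT replicate 3.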

How the data were processed

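Per the study's methods, reads were mapped to mm10 (GRCm38) with HISAT2, retaining a single alignment of each, and summarized by gene with StringTie. The authors deposited these data as raw whole-number counts. The tool behind the whole numbers, the strand setting and the gene annotation were not given in the sources used here. The smallest row sum was 60, so genes with low counts were absent from the table. Counts were tested in R 4.3.3 with edgeR 4.0.16 (filterByExpr with a minimum count of 10, TMM scaling, two-sided quasi-likelihood F-test, no covariate), with Benjamini-Hochberg adjustment over 13594 genes. A gene was called at a fold change above 1.5, p under 0.05 and adjusted p under 0.1, the cutoffs of the study. SE was the log2 fold change divided by the square root of F. DESeq2 1.42.0 was an alternative. Other alternatives were RLE scaling, library totals alone, GC and length offsets, no filter or 10 counts in every sample, adjusted p under 0.05 with no fold cutoff, glmTreat (a test against the fold cutoff itself), a replicate block and leaving out each sample. CPM is a count per 1000000 of the TMM-scaled library, and 3 counts, the floor for telling a level from 0, were 0.0747 to 0.0913 CPM, which covers counting error only. Gene lengths came from GENCODE M21, which held 97.87% of the symbols.

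On simulated counts for 13594 genes with 200 changed, edgeR recovered 72.3% of the genes changed by 1 and 89.9% of those changed by 2 on the log2 scale, and unchanged genes made up 9.25% of its calls. DESeq2 recovered 83% and 94.9%, and unchanged genes made up 26.5% of its calls. The simulation gave both genotypes the same spread for each gene, unlike the data, where the biological coefficient of variation was 0.263 in WT and 0.0703 in KO. The genes, lists and cutoffs were chosen with earlier results of these data known. Named genes are the 10 genes, Zfp335, markers and, per pathway list, up to 3 called genes with the largest rise and 3 with the largest fall at a mean of at least 5 CPM. Genes alike in profile were to be named only for called members. Nfkbie beside Nfkb1 and Nfkbiz beside Nfkbia were singled out after their values were seen. So were Jun, Fos, Ier2, Hspa1a, Hspa1b, Ccdc82, Prpf4, Snx5, Cyfip2, Gars, Tuba1b and the genes called only without WT replicate 3. No label says that replicates were separate mice, so p-values measure the spread between these samples.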

Additional observations from a re-analysis of the deposited data

How the results depend on the processing

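The count of called genes among the 10 was 0 with DESeq2, RLE scaling, library totals alone, other filters, glmTreat and the replicate block. It was 1, higher in KO, with GC and length offsets (Nfkbib, 0.67), beside 24% of all genes called. It was 4, all higher, when the fold cutoff was dropped for an adjusted p under 0.05, which 38.6% of all genes passed (2610 of 13594 genes passed and were higher in KO). Leaving out each sample gave 0 to 3 called genes, all higher in KO. There were 3 without WT replicate 3 and 1 without KO replicate 2, beside 26.8% and 21.3% of all genes called. The median log2 fold change was 0.06 to 0.37, with 0.06 without WT replicate 1 and 0.09 without WT replicate 2. The Tnfaip3 change, 0.17 over all samples, ranged from -0.21 (without WT replicate 2) and -0.18 (without WT replicate 1) to 1.39 (without WT replicate 3), and the Rela change from -0.01 (without WT replicate 2) to 0.15. The log2 ratio of KO to WT in the balance of IkB to subunits was 0.12, and ranged from -0.06 (without WT replicate 1) and -0.03 (without WT replicate 2) to 0.51 (without WT replicate 3). Beside 25 called pathway genes, 42 were called when the fold cutoff was dropped (38.6% of all genes) and 15 by glmTreat (12.4% of all genes). These shifts follow from the construction of the rules. For the other changes the cause was not tested. Deviations of same-numbered WT and KO samples had correlations of 0.0377, 0.0404 and -0.0116, beside -0.0644 to 0.029 for samples with different numbers. With 3 samples per genotype, these values cannot decide whether same-numbered samples shared a litter, day or batch, and no label says so. The replicate block gave 3190 called genes in all, beside 3318, none of them among the 10, and a Tnfaip3 change of 0.66 (edgeR adjusted p = 0.347). Across scalings the median of all genes moved from -0.04 to between -0.07 and -0.00.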

Other observations

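The following genes were singled out after their values were seen. Among the called target genes with low levels, Csf2, the gene of the cytokine GM-CSF, was at 0.163, 0 and 0.120 CPM in WT and at 10.7, 7.94 and 10.6 CPM in KO, so that no KO sample was near the WT samples. Tnfaip2, a gene induced by TNF, was at 0.326, 0.0913 and 0.300 CPM in WT and at 2.82, 3.48 and 4.17 CPM in KO. Tnip3, whose product binds A20, was at 1.49, 1.55 and 2.25 CPM in WT and at 5.09, 4.31 and 6.84 CPM in KO. The summed myeloid markers were higher in KO as well, and their part in these values was not tested.

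Ikbkb, Otulin and Ripk1 missed the fold cutoff over all 6 samples. Ikbkb, the catalytic subunit of the kinase, was at 267, 242 and 249 CPM in WT and at 180.4, 172 and 160.1 CPM in KO (-0.56 on the log2 scale, SE 0.07, adjusted p = 0.000971 by edgeR, and -0.58 without WT replicate 3, which was not called either). Otulin, which removes linear ubiquitin chains, was at 43.5, 42.9 and 47.1 CPM in WT and at 67.5, 64.5 and 66.5 CPM in KO (0.57 on the log2 scale, SE 0.07, adjusted p = 0.000792 by edgeR). Ripk1, a kinase that carries such chains, was at 63, 65 and 79.2 CPM in WT and at 104, 94.6 and 99.8 CPM in KO (0.53 on the log2 scale, SE 0.10, adjusted p = 0.00465 by edgeR). Otulin (0.61) and Ripk1 (0.63) were called higher in KO without WT replicate 3.

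The genes whose profile over the 6 samples was most like that of Nfkbia were Isg20, Nfkbiz and Pim1, and none of them was among the nearest 3 without WT replicate 3. Pim1, a kinase gene induced by cytokines, was at 434, 407 and 960.0 CPM in WT and at 682, 674 and 678 CPM in KO. Isg20, an interferon-induced exonuclease gene, was at 29.3, 31.2 and 73.2 CPM in WT and at 55, 53.7 and 54.7 CPM in KO. In both, as in Nfkbia, the KO samples lay between WT replicates 1 and 2 below and WT replicate 3 above.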
